A study of Arabidopsis thaliana with 12 samples.

Results

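The beta-amylase family of *Arabidopsis thaliana* has 9 genes, *BAM1* to *BAM9*, and all 9 had a row among the 26245 gene models of the count table. The members were chosen by family name alone and no measured value entered the rule, but the family was taken up with earlier results of these same libraries known, so the calls below describe the family and are no independent evidence about it. All 9 were among the 19961 models tested, which had at least 1 CPM (the read count scaled to the size of the library) in at least 3 libraries. Beta-amylases cut maltose from the ends of glucan chains, and in leaves they turn the starch made by day into maltose that leaves the chloroplast at night. Several members have lost catalytic activity, and *BAM7* and *BAM8* carry a DNA-binding domain of the BZR1 type and act in the nucleus. RVE8 is a MYB-like clock transcription factor that binds a promoter sequence called the evening element, and starch breakdown is timed by the clock.

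The study compared 4 groups of 3 libraries of whole seedlings 7 days old: *RVE8:GR* + DEX, *RVE8:GR* + mock, *rve8* + DEX and *rve8* + mock. Both lines carried the *rve8-1* mutation, and *RVE8:GR* seedlings also carried RVE8 fused to the glucocorticoid receptor and driven by *RVE8*'s own promoter (*rve8-1 RVE8::RVE8:GR*, homozygous for a single insertion and, per the study's methods, made in plants with a *CCR2::LUC+* reporter). The steroid dexamethasone (DEX) lets such a fusion enter the nucleus, and mock seedlings got the solvent. Seedlings from 12 hr light/12 hr dark days were moved at ZT4 (4 hr after lights on) to liquid medium with 3% sucrose and harvested 4 hr later, at ZT8, in pools of about 30 per library. No wild type was compared, so all values are from afternoon seedlings on sucrose without native RVE8.

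The libraries held 15975840 to 21713130 counts, so that 3 counts corresponded to 0.139 to 0.182 CPM. The labels held up against the checks: *RVE8* was at 5.67 ± 0.571 CPM in *RVE8:GR* + DEX and 8.96 ± 0.728 CPM in *RVE8:GR* + mock, against 0.992 ± 0.368 CPM in *rve8* + DEX and 1.13 ± 0.810 CPM in *rve8* + mock (SD, n = 3 each). *PRR5*, an evening clock gene that RVE8 activates, was at 103 ± 4.58 CPM in *RVE8:GR* + DEX, against 46.0 ± 7.68 CPM in *RVE8:GR* + mock. In *rve8* it was at 34.7 ± 2.26 CPM with DEX and 30.3 ± 1.09 CPM with mock. *PRR5* thus differed between the lines without DEX too, higher in *RVE8:GR* (log2 fold change 0.60, adjusted p 6.34e-04 by edgeR's quasi-likelihood test). Green-tissue and root markers were present in every library, as whole seedlings should have them, but not at the same level. Summed root markers (4 genes) were at 86.7 to 89.7 CPM in *rve8* + DEX, above the other groups (73.0 to 76.6 CPM in *RVE8:GR* + DEX, 71.7 to 84.2 CPM in *RVE8:GR* + mock and 77.7 to 84.7 CPM in *rve8* + mock), with none of the 4 called with DEX in *rve8*. There the libraries of *TIP2;3*, *SHR* and *SCR* were higher with DEX. Those of *COBL9* were lower, at 4.26 ± 0.835 CPM with DEX, against 6.42 ± 0.788 CPM with mock. Summed green-tissue markers (3 genes) were at 31804 to 36049 CPM in *rve8* + DEX and 25668 to 31645 CPM in *rve8* + mock, and *LHCB1.3*, a light-harvesting protein gene, was called higher there (log2 fold change 0.32, adjusted p 0.00793). Summed transcripts of 3 mature seed genes were not near 0 and varied widely, at 127 to 179 CPM in *RVE8:GR* + DEX, 171 to 273 CPM in *RVE8:GR* + mock, 50.1 to 338 CPM in *rve8* + DEX and 36.9 to 191 CPM in *rve8* + mock. Most of each sum was *CRA1*, at 33.0 to 327 CPM per library, against 2.04 to 7.92 CPM for *OLEO1* and 1.70 to 4.70 CPM for *OLEO2*. The part of all these markers in the results below, those of *BAM1*, *BAM3* and *BAM9* in *rve8* + DEX among them, was not tested.

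Evening elements were looked for in the 1500 bases before each start codon, on both strands, because RVE8 binds this sequence. The short form AAATATCT stood before *BAM4* and *BAM6*, that is 2 of the 9 members, against 20.6% of the 23808 models with such a stretch. The long form AAAATATCT, which contains the short one, stood before none of the 9 and before 9.76% of all models. The shorter EE-like form AATATCT, which both others contain, added no further member and stood before 41.0% of all models. The G-box core CACGTG, which reads the same on both strands and is part of the element that BAM7 and BAM8 bind, stood before 5 members (*BAM1*, *BAM2*, *BAM5*, *BAM7* and *BAM9*), against 21.1% of all models. The sites of the evening element members and of the 2 members that differed most between groups are shown with the matching letters in capitals, each 5′ to 3′ on the strand given (genome build TAIR10.1).
*BAM4* evening element, chr5:22551831-22551860, forward: aaccatctgagAAATATCTccgacgaagga
*BAM6* evening element, chr2:13717154-13717183, forward: atataaccaatAAATATCTatgtgatacta
*BAM5* G-box, chr4:8669762-8669791, reverse: ttgcatttactcCACGTGcttaaaaacaac
*BAM9* distal G-box, chr5:6225023-6225052, forward: ctcatgttacgaCACGTGttaacctgtctg
*BAM9* proximal G-box, chr5:6225864-6225893, forward: ttgtggtaacgaCACGTGtaatgtccaaat
The *BAM4* evening element lay in the 5′ UTR, 23 bases before the start codon, and on the strand of the gene. That of *BAM6* lay 258 bases before the start codon and 162 bases upstream of the transcript, on the strand opposite to the gene. The *BAM5* G-box lay 416 bases before the start codon and 247 bases upstream of the transcript. Those of *BAM9* lay 1097 and 256 bases before the start codon, the nearer one 74 bases upstream of the transcript. *BAM3* and *BAM8* held neither sequence in this window. A match says only that these letters are present.

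**Figure D1:**
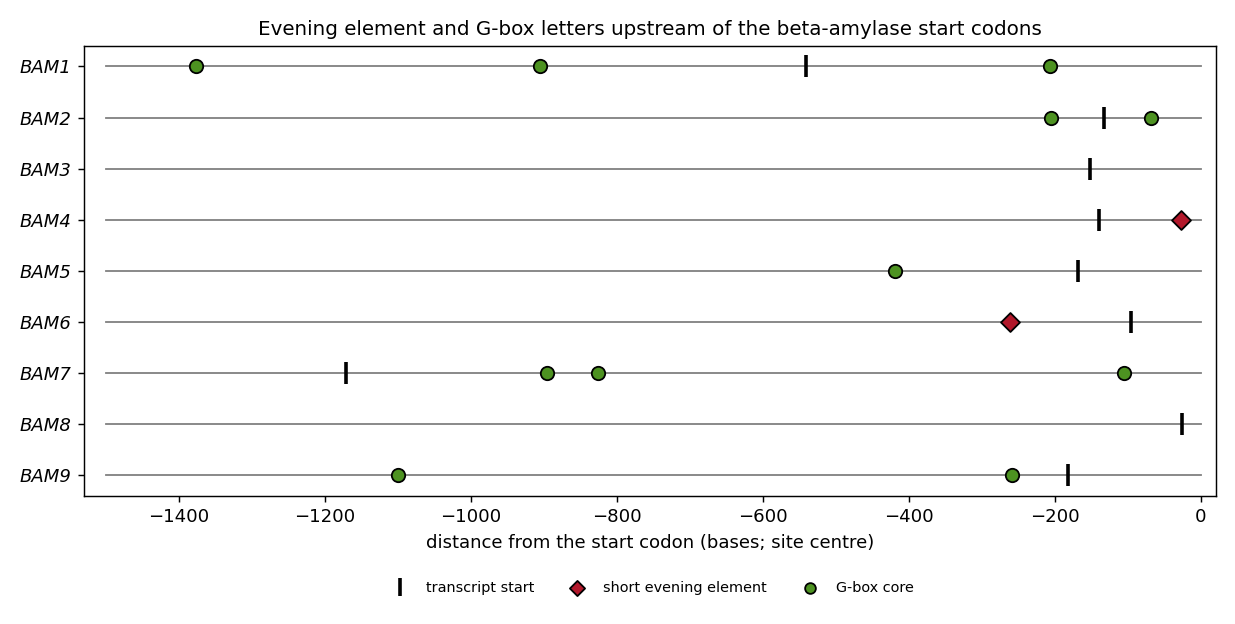
Positions of the short evening element (diamonds) and the G-box core (circles) in the 1500 bases before the start codon of each beta-amylase gene, by distance in bases, with the annotated transcript start as a vertical bar. Evening elements stood before *BAM4* and *BAM6* and G-box cores before 5 other members.

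Induction of RVE8 is addressed first by the comparison of DEX with mock in *RVE8:GR* seedlings. No member passed the threshold there (edgeR's quasi-likelihood test over all 19961 models, Benjamini-Hochberg adjusted p under 0.01, used throughout), where 2.07% of all models were called higher and 1.36% lower. *BAM5* came nearest, at 0.257 times the mock level with an adjusted p of 0.0158. *BAM4* (log2 fold change 0.26, adjusted p 0.215) and *BAM9* (-0.23, adjusted p 0.244) came next, far from the threshold and in opposite directions.

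With DEX in both lines, *BAM5* was higher in *RVE8:GR* than in *rve8*, where 1.89% of all models were called higher, and *BAM1*, *BAM3* and *BAM9* were lower, where 2.32% were called lower. DEX alone is measured in *rve8*, which has no fusion protein: *BAM1*, *BAM3* and *BAM9* were higher with DEX than with mock, where 3.96% of all models were called higher, and no member was called lower, where 1.57% were. That background depends on the scaling, with 790 models higher and 313 lower here, 520 higher and 803 lower without TMM factors, and 644 higher and 436 lower with upper-quartile factors. Between the lines without DEX, *BAM5* was higher in *RVE8:GR* (background 1.31%) and *BAM9* lower (background 0.416%), with 261 models higher and 83 lower in all, against 216 and 148 without TMM factors and 222 and 128 with upper-quartile factors. The difference between the lines in their response to DEX passed the threshold for *BAM1* and *BAM9*, both with a lower response in *RVE8:GR* (background 0.947%), and for no member in the other direction (background 0.240%), with 48 models higher and 189 lower in all, against 68 and 126 without TMM factors. No member's call changed under either scaling. Each pair of these comparisons that names the same group shares its libraries, so they are not independent of each other. *BAM2*, *BAM4*, *BAM6*, *BAM7* and *BAM8* passed in none of the 5.

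**Figure D2:**
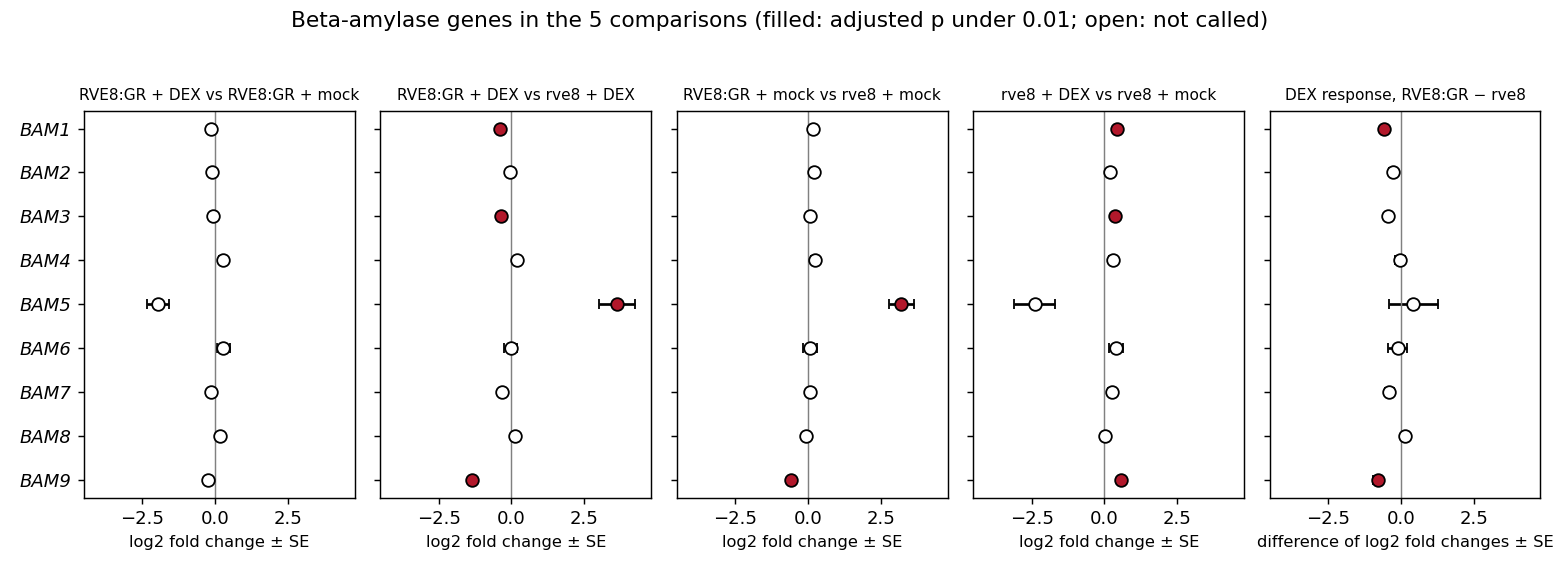
Log2 fold change ± SE of each beta-amylase gene in the 4 comparisons of 2 groups, and, in the right panel, how far the log2 responses to DEX of the lines differed, from the edgeR fit of all 12 libraries. Filled points had an adjusted p under 0.01, and in the 4 comparisons of 2 groups *BAM5* had the largest values and the widest errors.

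*BAM3*, the main chloroplast enzyme of night-time starch breakdown in leaves, was the most abundant member per length. It is AT4G17090, at chr4:9604962-9607402 on the reverse strand, with 4 exons and a cDNA of 2103 nucleotides. Its level was 135, 126 and 138 CPM in *RVE8:GR* + DEX, 125, 152 and 144 CPM in *RVE8:GR* + mock, 159.6, 183 and 168 CPM in *rve8* + DEX, and 125, 134 and 138 CPM in *rve8* + mock. All 3 libraries of *rve8* + DEX were above the 9 others, which overlapped. With DEX in both lines, *BAM3* was lower in *RVE8:GR* than in *rve8*, with a log2 fold change of -0.36 (SE 0.0733, adjusted p 0.00261), and higher in *rve8* + DEX than in *rve8* + mock by 0.37 (SE 0.0736, adjusted p 0.00215). In *RVE8:GR*, DEX against mock gave a log2 fold change of -0.08 (adjusted p 0.642). The lines' responses to DEX differed by -0.44 with an adjusted p of 0.0194, which missed the threshold here but passed with DESeq2 (0.00473), with no filter on low counts (0.00753) and without *RVE8:GR* + mock library 1 (0.00497; range over 18 alternatives 0.00473 to 0.0734). The first call was lost without *RVE8:GR* + DEX library 1 or 2 or *rve8* + DEX library 2, at adjusted p 0.0113 to 0.0279 (range over 20 alternatives 2.32e-04 to 0.0279). The second was lost without *rve8* + DEX library 2 or *rve8* + mock library 1 or 2, at 0.0125 to 0.0191 (range 1.95e-04 to 0.0191).

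*BAM1*, a redox-regulated plastid enzyme with roles in daytime and guard cell starch breakdown, showed the same order of group means. The gene is AT3G23920, at chr3:8641181-8644449 on the forward strand, with 4 exons and a cDNA of 2519 nucleotides. It was measured at 41.5, 44.2 and 40.3 CPM in *RVE8:GR* + DEX and 48.0, 45.4 and 45.6 CPM in *RVE8:GR* + mock. The *rve8* + DEX libraries stood at 55.4, 56.2 and 54.8 CPM, above every other library, and those of *rve8* + mock at 44.3, 40.1 and 38.2 CPM. In *rve8*, *BAM1* was higher with DEX, at 55.5 ± 0.669 CPM, against 40.9 ± 3.12 CPM with mock (SD, n = 3 each, log2 fold change 0.44, SE 0.0692, adjusted p 2.55e-04). In *RVE8:GR*, it was at 42.0 ± 2.00 CPM with DEX, against 46.3 ± 1.44 CPM with mock, a log2 fold change of -0.14 (adjusted p 0.278). The responses differed between the lines by -0.58 (SE 0.0976, adjusted p 0.00135). With DEX in both, *BAM1* was lower in *RVE8:GR* than in *rve8* by a log2 fold change of -0.40 (SE 0.0685, adjusted p 4.24e-04). These 3 calls held under every alternative tried, leaving out any library included. Summed transcripts of 3 guard cell genes were at 68.3 to 77.2 CPM with DEX and 54.7 to 60.6 CPM with mock in *rve8*, where none of the 3 passed (*GC1* came nearest, adjusted p 0.0308), and in *RVE8:GR* they were at 61.8 to 69.1 CPM with DEX and 65.2 to 72.2 CPM with mock. Their part in the *BAM1* result was not tested, and in such bulk samples fewer cells of a type and less RNA per cell cannot be told apart.

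*BAM2* and *BAM6*, the other plastid members, passed no test. *BAM2* (AT4G00490, chr4:222289-225131, forward strand) had 17.5 to 19.0 CPM in *RVE8:GR* + DEX, 19.1 to 20.1 CPM in *RVE8:GR* + mock, 18.5 to 19.1 CPM in *rve8* + DEX and 16.3 to 17.3 CPM in *rve8* + mock. Its 12 libraries spanned 1.23-fold, the least of the family, and the log2 fold changes ran between -0.11 and 0.22 in the comparisons of 2 groups. *BAM6* (AT2G32290, chr2:13714516-13717002, reverse strand) was the lowest member, with 29 to 67 counts per library. It had 2.46 to 2.81 CPM in *RVE8:GR* + DEX, 2.07 to 2.18 CPM in *RVE8:GR* + mock, 2.26 to 3.36 CPM in *rve8* + DEX and 1.76 to 2.18 CPM in *rve8* + mock. At such counts its standard errors in the comparisons of 2 groups were 0.218 to 0.235 on the log2 scale, so that changes of the size seen in *BAM1* were not detectable. Its log2 fold change with DEX was 0.28 in *RVE8:GR* (adjusted p 0.560) and 0.40 in *rve8* (adjusted p 0.282).

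*BAM9*, a plastid member without catalytic activity, differed between the lines with either treatment. The gene is AT5G18670, at chr5:6225956-6228195 on the forward strand, with 3 exons and a cDNA of 1989 nucleotides. *BAM9* was at 12.1, 13.7 and 13.2 CPM in *RVE8:GR* + DEX and 13.7, 16.3 and 15.7 CPM in *RVE8:GR* + mock, against 30.4, 37.4 and 33.0 CPM in *rve8* + DEX and 24.6, 20.4 and 22.8 CPM in *rve8* + mock. Every *rve8* library was above every *RVE8:GR* library, and the *rve8* + DEX libraries were above those of *rve8* + mock. With DEX in both lines, *BAM9* was at 13.0 ± 0.797 CPM in *RVE8:GR*, against 33.6 ± 3.54 CPM in *rve8* (SD, n = 3 each), a log2 fold change of -1.37 (SE 0.102, adjusted p 1.09e-08). With mock in both lines, the log2 fold change was -0.57 (SE 0.103, adjusted p 0.00197). In *rve8* it was higher with DEX than with mock by 0.57 on the log2 scale (SE 0.0983, adjusted p 5.59e-04). In *RVE8:GR* the change was -0.23 (SE 0.106, adjusted p 0.244), which missed the threshold. There the highest DEX library and the lowest mock library were both at 13.7 CPM. The responses of the lines differed by -0.80 (SE 0.145, adjusted p 0.00269). The mock comparison lost its call without *RVE8:GR* + mock library 1 or *rve8* + mock library 1 (adjusted p 0.0181 and 0.0136, range over 20 alternatives 6.29e-05 to 0.0181). The difference of the responses lost it without *RVE8:GR* + DEX library 1, *RVE8:GR* + mock library 2, *rve8* + DEX library 2 or *rve8* + mock library 2, at 0.0114 to 0.0145 (range over 18 alternatives 1.31e-04 to 0.0145).

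*BAM4*, the other plastid member without catalytic activity and one of the members with an evening element, was at 14.3, 18.5 and 19.4 CPM in *RVE8:GR* + DEX and 15.0, 14.4 and 14.1 CPM in *RVE8:GR* + mock, against 14.0, 17.1 and 14.5 CPM in *rve8* + DEX and 13.2, 12.4 and 11.6 CPM in *rve8* + mock. It is AT5G55700, at chr5:22551734-22554964 on the forward strand. Library 1 of *RVE8:GR* + DEX lay inside the range of *RVE8:GR* + mock, and the other 2 above it. The log2 fold change with DEX was 0.26 in *RVE8:GR* (SE 0.114, adjusted p 0.215) and 0.29 in *rve8* (SE 0.119, adjusted p 0.115), and their difference was -0.03 (SE 0.165, adjusted p 0.962). Neither evening element member was therefore called in any comparison.

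**Figure D3:**
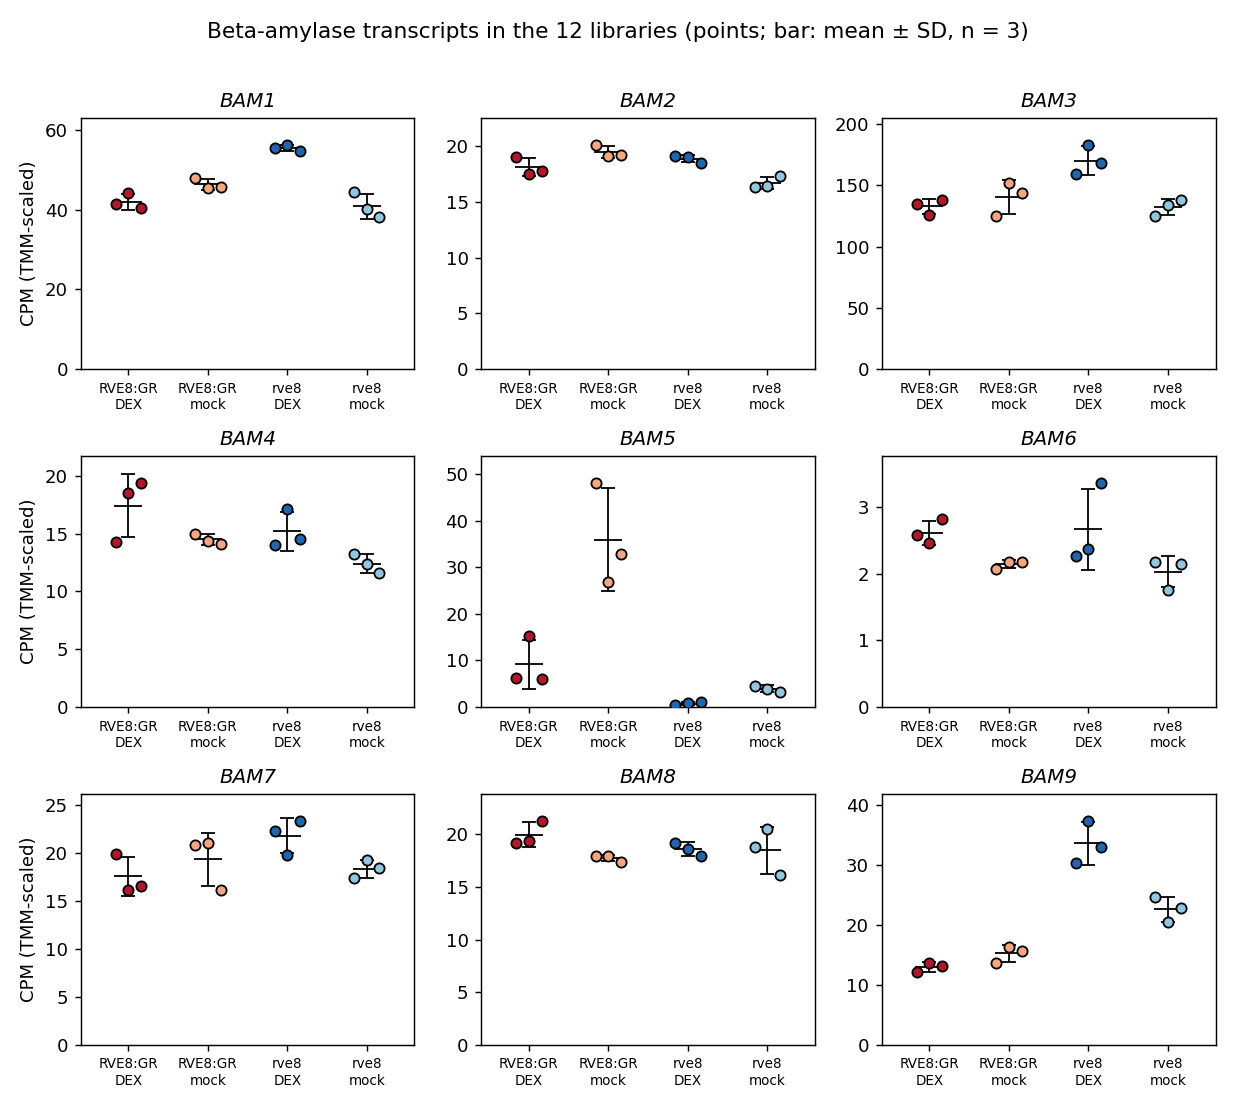
CPM of each beta-amylase gene in the 12 libraries (points), with the mean and SD of each group of 3 (bars), on axes that start at 0. *BAM5* was highest in *RVE8:GR* + mock, *BAM1* and *BAM3* were highest in *rve8* + DEX, and *BAM9* was higher in all 6 *rve8* libraries than in all 6 *RVE8:GR* libraries.

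*BAM5* was the member that varied most. It encodes the cytosolic beta-amylase of the phloem, which accounts for most of the activity extracted from leaves and is induced by sugar. The gene is AT4G15210, at chr4:8666334-8669526 on the reverse strand, with 7 exons and a cDNA of 2066 nucleotides. Its counts were 131, 329 and 106 in *RVE8:GR* + DEX and 975, 518 and 574 in *RVE8:GR* + mock, against 7, 13 and 21 in *rve8* + DEX and 78, 65 and 53 in *rve8* + mock. In CPM these were 6.13, 15.3 and 6.08 in *RVE8:GR* + DEX and 48.1, 26.8 and 32.8 in *RVE8:GR* + mock, against 0.385, 0.752 and 1.05 in *rve8* + DEX and 4.59, 3.94 and 3.14 in *rve8* + mock. The highest library was 125-fold above the lowest. No 2 groups overlapped, and the order of the groups from high to low was *RVE8:GR* + mock, *RVE8:GR* + DEX, *rve8* + mock and *rve8* + DEX.

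In both lines the *BAM5* libraries with DEX were below those with mock. In *RVE8:GR* it averaged 9.15 ± 5.29 CPM with DEX and 35.9 ± 10.9 CPM with mock (SD, n = 3 each), a log2 fold change of -1.96 (SE 0.373, adjusted p 0.0158). In *rve8* it averaged 0.730 ± 0.334 CPM with DEX and 3.89 ± 0.724 CPM with mock, a log2 fold change of -2.39 (SE 0.704, adjusted p 0.0627). Neither passed the threshold, and the difference between the 2 responses was 0.43 with an SE of 0.834 (adjusted p 0.886), an error too wide to say whether the lines responded alike. The first value depended on library 2 of *RVE8:GR* + DEX, at 15.3 CPM: without it the log2 fold change was -2.56 with an adjusted p of 1.44e-04, and the range over 19 alternatives was 4.88e-21 to 0.120. The first value also passed with edgeR's exact test (4.88e-21) and DESeq2 (2.32e-04). The *rve8* response passed without that library (adjusted p 0.00278), with the exact test (4.70e-14), with DESeq2 (4.99e-05) and in a fit of the 2 groups alone (1.69e-04), over a range of 4.70e-14 to 0.182.

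Between the lines, *BAM5* was higher in *RVE8:GR* with either treatment. With DEX the level was 12.4-fold that of *rve8* (log2 fold change 3.63, SE 0.608, adjusted p 0.00712), and with mock 9.23-fold (log2 fold change 3.21, SE 0.425, adjusted p 0.00437). The call with DEX was lost when any library of *rve8*, or library 3 of *RVE8:GR* + mock, was left out, at adjusted p 0.0121 to 0.0370 (range over 19 alternatives 5.58e-39 to 0.0370), and in a fit of the 2 groups alone (adjusted p 0.0331). The call with mock was lost without any library of *rve8* + mock or without library 1 or 3 of *RVE8:GR* + mock, at 0.0102 to 0.0300 (range 1.36e-46 to 0.0300), and the direction of both held in all of them. Of the phloem markers, *SUC2*, the sucrose transporter of companion cells, was higher with DEX in both lines, opposite to *BAM5*. It was at 113 ± 2.93 CPM in *RVE8:GR* + DEX, against 82.5 ± 2.49 CPM in *RVE8:GR* + mock, and at 104 ± 3.18 CPM in *rve8* + DEX, against 78.9 ± 7.94 CPM in *rve8* + mock (SD, n = 3 each, adjusted p 1.32e-04 and 5.70e-04). *SUC2* did not pass between the lines (log2 fold change 0.12 with DEX, adjusted p 0.337, and 0.06 with mock, adjusted p 0.648). *APL*, a phloem transcription factor and the other marker, passed in none of the comparisons, but its DEX libraries were below those with mock in both lines, like *BAM5*. It was at 18.6 ± 1.05 CPM in *RVE8:GR* + DEX, against 20.8 ± 1.05 CPM in *RVE8:GR* + mock (adjusted p 0.330). In *rve8* it was at 18.4 ± 0.608 CPM with DEX, against 22.1 ± 0.520 CPM with mock (adjusted p 0.0436, SD, n = 3 each). The part of either marker in the *BAM5* result was not tested.

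*BAM7* and *BAM8*, the nuclear members, passed no test in any comparison. *BAM7* (AT2G45880, chr2:18878518-18882995, reverse strand, 11 exons) had 16.2 to 19.9 CPM in *RVE8:GR* + DEX, 16.2 to 21.1 CPM in *RVE8:GR* + mock, 19.8 to 23.4 CPM in *rve8* + DEX and 17.4 to 19.3 CPM in *rve8* + mock. Its largest log2 fold change in a comparison of 2 groups was -0.31, in *RVE8:GR* + DEX against *rve8* + DEX (SE 0.109, adjusted p 0.0969). *BAM8* (AT5G45300, chr5:18353610-18356886, forward strand, 10 exons) had 19.2 to 21.3 CPM in *RVE8:GR* + DEX, 17.4 to 17.9 CPM in *RVE8:GR* + mock, 17.9 to 19.2 CPM in *rve8* + DEX and 16.1 to 20.5 CPM in *rve8* + mock. Its log2 fold change with DEX was 0.17 in *RVE8:GR* (adjusted p 0.351) and 0.01 in *rve8* (adjusted p 0.971).

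Compared per kb of cDNA, the order of the members over the 12 libraries was *BAM3* (mean 68.5 CPM per kb), *BAM1* (18.3), *BAM9* (10.6), *BAM2* (9.00), *BAM8* (8.17), *BAM4* (7.44), *BAM5* (6.01), *BAM7* (5.89) and *BAM6* (1.21). The group ranges of *BAM2*, *BAM8* and *BAM4* lay close together, between 5.79 and 9.91 CPM per kb, and their order was not tested. The places of *BAM9* and *BAM5* depended on the group. *BAM9* was at 6.53 CPM per kb in *RVE8:GR* + DEX and 7.67 CPM per kb in *RVE8:GR* + mock, below *BAM2* (8.90 and 9.59) and *BAM8* (8.75 and 7.75), but at 16.9 CPM per kb in *rve8* + DEX and 11.4 CPM per kb in *rve8* + mock. At 13.0 to 23.3 CPM per kb in *RVE8:GR* + mock, *BAM5* reached the level of *BAM1* (18.0 to 19.0), and at 0.186 to 0.509 CPM per kb in *rve8* + DEX it was below *BAM6* (1.15 to 1.71). Summed over the family, the level was 124 ± 1.64 CPM per kb in *RVE8:GR* + DEX and 142 ± 1.49 CPM per kb in *RVE8:GR* + mock, against 153 ± 8.02 CPM per kb in *rve8* + DEX and 121 ± 0.673 CPM per kb in *rve8* + mock (SD, n = 3 each). *BAM3* made up 42.1% to 53.8% of that sum in every library. *BAM5* made up 2.34% to 5.95% in *RVE8:GR* + DEX and 9.06% to 16.5% in *RVE8:GR* + mock, against 0.128% to 0.335% in *rve8* + DEX and 1.25% to 1.84% in *rve8* + mock.

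**Figure D4:**
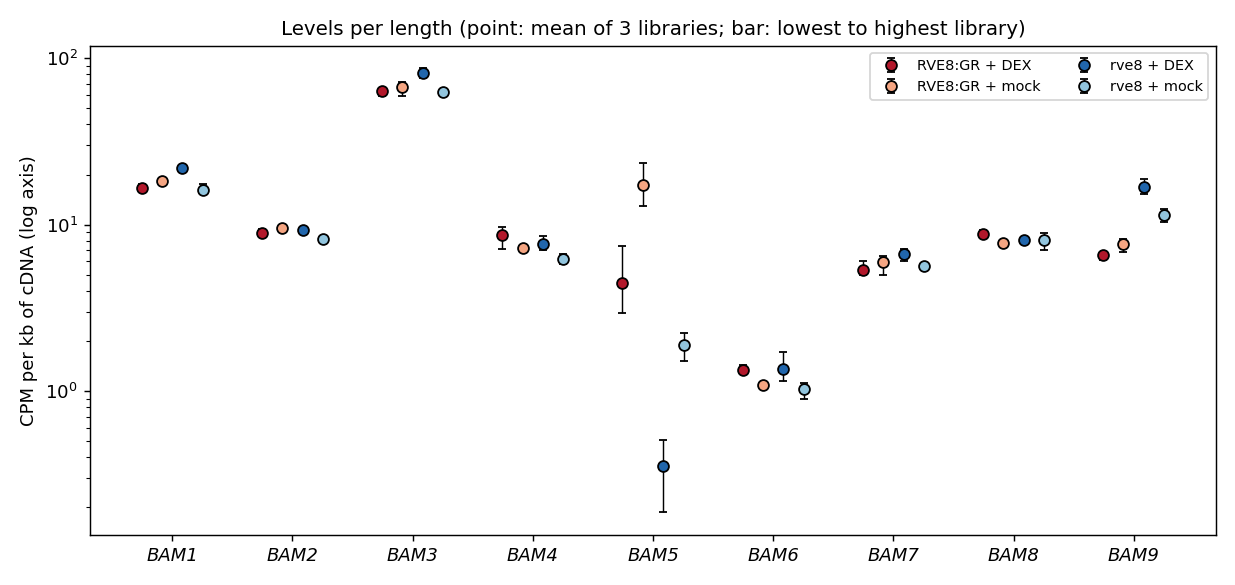
Level of each beta-amylase gene per kb of cDNA on a log axis, as the mean of 3 libraries (points) with the lowest and the highest library (bars). *BAM3* was the highest member in every group, and *BAM5* stood between *BAM3* and *BAM2* in *RVE8:GR* + mock and below *BAM6* in *rve8* + DEX.

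Of the family as a whole, the median log2 fold change was -0.11 for DEX against mock in *RVE8:GR*, -0.06 for *RVE8:GR* against *rve8* with DEX, 0.29 for DEX against mock in *rve8*, 0.09 for *RVE8:GR* against *rve8* with mock, and -0.28 for the difference of the responses. The medians over all models tested were between -0.01 and 0.01. In *rve8*, 8 of the 9 members had a value above 0 with DEX, *BAM5* being the exception, and in *RVE8:GR* 3 of the 9 did. The 8 include *BAM8* at 0.01, which fell to -0.07 without TMM factors and -0.02 with upper-quartile factors. The share of all models above 0 was not counted. The members are not alike in build: the cDNAs ran between 1957 and 3272 nucleotides with 3 to 11 exons, and the proteins between 498 (*BAM5*) and 691 (*BAM7*) residues. No exact stretch of 50 bases, the read length, was shared by a member's cDNA with another gene's model among the models searched. Reads of that length without mismatches could thus be told apart between members. Stretches with mismatches were not searched, nor were the 1368 models that had no match in the genome annotation.

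Other genes of starch breakdown were mostly higher in *RVE8:GR* than in *rve8*. The list held 18 genes, of which 17 were tested (*AMY1*, at 0.376 to 0.861 CPM as group means, was not). With DEX in both lines, 11 of the 17 were higher in *RVE8:GR* and none lower, with a median log2 fold change of 0.42, where *BAM1*, *BAM3* and *BAM9* were lower. Of all models, 1.89% were called higher there and 2.32% lower. With mock in both lines, 12 were higher and none lower, with a median of 0.52 (background 1.31% higher and 0.416% lower). *GWD1* (AT1G10760), the glucan, water dikinase that opens the starch granule surface, was at 395 ± 8.28 CPM in *RVE8:GR* + DEX and 292 ± 27.1 CPM in *RVE8:GR* + mock, against 188 ± 13.0 CPM in *rve8* + DEX and 139.7 ± 5.69 CPM in *rve8* + mock (SD, n = 3 each). It was the 1 list gene higher with DEX in *RVE8:GR* (log2 fold change 0.43, adjusted p 2.52e-04, background 2.07%), and the 1 that passed in *rve8*, also at 0.43 (adjusted p 3.44e-04, background 3.96%).

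Lower with DEX in *RVE8:GR* were 3 of the 17 list genes tested, where 1.36% of all models were called lower. *SEX4* (AT3G52180), a phosphoglucan phosphatase, was at 42.8 ± 2.78 CPM with DEX and 57.7 ± 4.81 CPM with mock (log2 fold change -0.43, adjusted p 0.00113). *AMY2* (AT1G76130), an alpha-amylase, was at 10.2 ± 1.72 CPM with DEX and 14.8 ± 2.05 CPM with mock (-0.55, adjusted p 0.00935). *DPE2* (AT2G40840), the cytosolic transglucosidase that uses the exported maltose, was at 107 ± 10.4 CPM with DEX and 136 ± 12.8 CPM with mock (-0.34, adjusted p 0.00807; SD, n = 3 each). In *rve8* the 3 had log2 fold changes of -0.10, -0.03 and 0.10 with DEX. The difference of the responses passed for none of the 17 (background 0.240% higher and 0.947% lower). In it *AMY2* (-0.52, adjusted p 0.156), *DPE2* (-0.44, adjusted p 0.0339) and *SEX4* (-0.33, adjusted p 0.158) had the largest values. *LSF1*, also on the list, was level with *SEX4* at this precision (-0.33, adjusted p 0.260). The median of the list was -0.09 in *RVE8:GR*, 0.03 in *rve8* and -0.20 for the difference.

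The genes most like a member in pattern were sought for *BAM5*, *BAM9* and *BAM4*, the 3 members with the largest range of group means among those averaging at least 5 CPM. Likeness was Pearson's r of log2 CPM over the 12 libraries, which share depth, line and treatment, and it is given as a description without a test. *BAM5* was most like *DHAR1* (AT1G19570, r 0.961), a dehydroascorbate reductase, AT1G19550 (r 0.956) and *CORI3* (AT4G23600, r 0.955), a gene induced by coronatine. *DHAR1* and AT1G19550 share part of their sequence (13.7% and 20.1% of their stretches of 50 bases), so their counts are not separate. Their range was much narrower than that of *BAM5*: *DHAR1* was at 203 ± 21.3 CPM in *RVE8:GR* + DEX, 278 ± 30.4 CPM in *RVE8:GR* + mock, 153 ± 13.5 CPM in *rve8* + DEX and 200.2 ± 6.31 CPM in *rve8* + mock. *CORI3* came nearer, at 29.9 ± 10.8 CPM in *RVE8:GR* + DEX, 72.0 ± 6.23 CPM in *RVE8:GR* + mock, 10.2 ± 3.26 CPM in *rve8* + DEX and 15.8 ± 2.05 CPM in *rve8* + mock (SD, n = 3 each).

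*BAM9* was most like *WNK2* (AT3G22420, r 0.979), a protein kinase gene, *CCA1* (AT2G46830, r 0.977), a morning clock transcription factor, and *BBX32* (AT3G21150, r 0.974), a B-box protein gene. *WNK2* was at 19.0 ± 0.235 CPM in *RVE8:GR* + DEX, 19.3 ± 0.735 CPM in *RVE8:GR* + mock, 30.0 ± 1.24 CPM in *rve8* + DEX and 23.2 ± 1.21 CPM in *rve8* + mock. *CCA1* was at 16.1 ± 0.558 CPM in *RVE8:GR* + DEX, 19.7 ± 1.02 CPM in *RVE8:GR* + mock, 52.8 ± 8.72 CPM in *rve8* + DEX and 28.7 ± 2.71 CPM in *rve8* + mock, the same order of groups as *BAM9*. *BBX32* was at 0.773 ± 0.0761 CPM in *RVE8:GR* + DEX, 1.54 ± 0.246 CPM in *RVE8:GR* + mock, 5.32 ± 0.853 CPM in *rve8* + DEX and 3.03 ± 0.640 CPM in *rve8* + mock (SD, n = 3 each). *BAM4* was most like AT1G44770 (r 0.920), *VP2* (AT1G78920, r 0.910), a proton-pumping pyrophosphatase, and AT3G22260 (r 0.906). Among the members themselves, the strongest relations were *BAM5* with *BAM9* (r -0.81), *BAM1* with *BAM3* (r 0.72) and *BAM3* with *BAM9* (r 0.71), over the same 12 libraries.

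**Figure D5:**
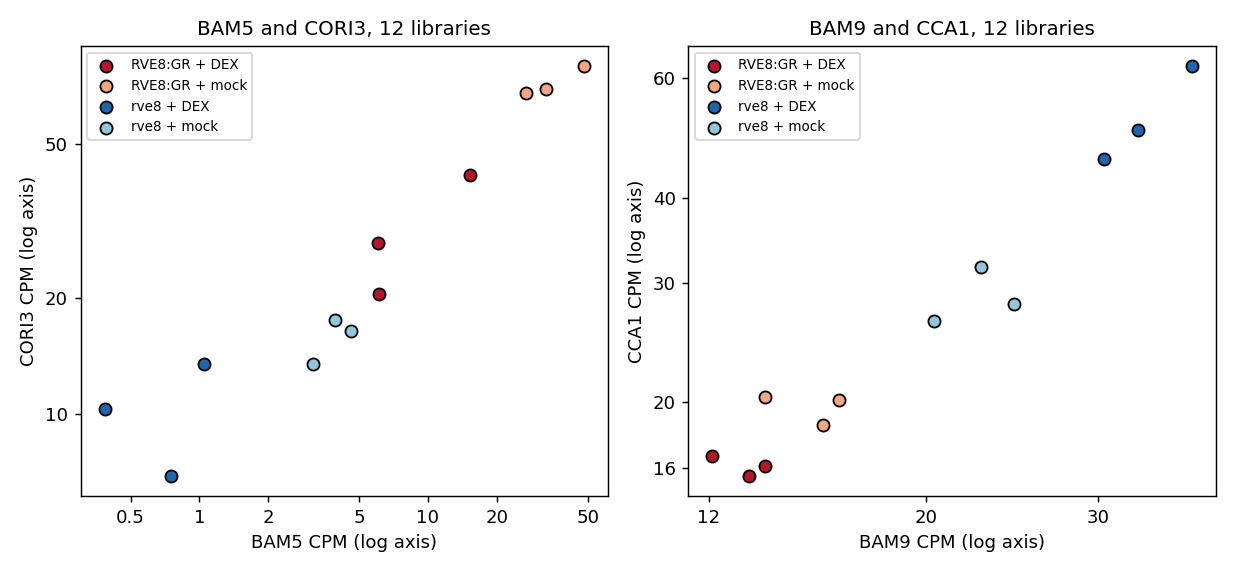
CPM of *BAM5* against *CORI3* (left) and of *BAM9* against *CCA1* (right) in the 12 libraries, on log axes, coloured by group. In the left panel *RVE8:GR* + mock libraries are the highest and *rve8* + DEX libraries the lowest for *BAM5*, and in the right panel *rve8* + DEX libraries are the highest for both genes.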

How the data were processed

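Poly(A) RNA of 12 seedling libraries was sequenced strand-specifically as single reads. The authors filtered reads with the FASTX-toolkit, aligned them with BWA to the TAIR10 representative cDNA models, merged lanes with SAMtools and counted reads of the reverse strand. The deposited table holds these raw counts per model. CASAVA 1.8 is named in the submitters' processing notes, and the other versions and the treatment of reads with several equal matches are not given in the sources used here. Entries written NA (33457) were read as 0. The labels give the DEX concentration in mM and the methods in µM, so none is printed.

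CPM here are counts relative to library size scaled by TMM factors (0.959 to 1.05). Models with at least 1 CPM in 3 libraries were tested in one fit of the 4 groups with edgeR 4.0.16 (R 4.3.3, robust quasi-likelihood, two-sided, tested on simulated data), with Benjamini-Hochberg adjustment over all 19961 models and a threshold of 0.01. The study used edgeR's exact test, which was an alternative here, like DESeq2 1.42.0, other scalings and filters, a replicate block and leaving out each library. Exact permutation of 3 against 3 libraries cannot give a p below 0.10. Replicate libraries differed by more than sampling noise (chi-square per degree of freedom 4.06 to 10.5).

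Lengths, positions and upstream stretches were read from RefSeq's TAIR10.1 by model name (24858 models matched by model name, 19 by locus and 1368 not). Evening element letters were read from the study's motif table. Named genes were all members, the starch breakdown genes called in *RVE8:GR* with DEX against mock or in the interaction or with one of the 3 largest changes there, the 3 models most alike for each of 3 members, and *RVE8* and *PRR5*. *GWD1* in other comparisons, *LSF1* and the marker genes were named after their values were seen. Members and lists were chosen with earlier results of these data known.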

Additional observations from a re-analysis of the deposited data

Results flagged for a closer look

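Of the beta-amylase genes, *BAM1* and *BAM9* responded to DEX differently in the 2 lines by the test of the difference itself (edgeR's quasi-likelihood test, Benjamini-Hochberg adjusted over all models). For *BAM1* the log2 response in *RVE8:GR* minus that in *rve8* was -0.58 (SE 0.0976, adjusted p 0.00135). The *BAM1* response was -0.14 in *RVE8:GR*, which was not called (adjusted p 0.278), and 0.44 in *rve8* (adjusted p 2.55e-04). For *BAM9* the difference was -0.80 (SE 0.145, adjusted p 0.00269). Its response was -0.23 in *RVE8:GR*, which was not called (adjusted p 0.244), and 0.57 in *rve8* (adjusted p 5.59e-04). The *BAM1* call held when any 1 library was left out. That of *BAM9* was lost without *RVE8:GR* + DEX library 1, *RVE8:GR* + mock library 2, *rve8* + DEX library 2 or *rve8* + mock library 2, at adjusted p 0.0114 to 0.0145. Groups of 3 libraries were too small to judge a single library as outlying.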

How the results depend on the processing

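The number of members called moved with the test for DEX against mock in *RVE8:GR*, which had 0 calls: edgeR's exact test, DESeq2, an adjusted p under 0.05 and, chosen after seeing the data, leaving out *RVE8:GR* + DEX library 2 and *RVE8:GR* + mock library 1 together each gave 1 (*BAM5*), and leaving out 1 library gave 0 to 1. For *RVE8:GR* + DEX against *rve8* + DEX, with 4 calls, leaving out 1 library gave 2 to 4. For *RVE8:GR* + mock against *rve8* + mock, with 2 calls, a minimum of 10 counts in every library, which leaves *BAM5* untested, gave 1, the omission of the same pair of libraries gave 1 (*BAM9* at -0.50, adjusted p 0.0189), and leaving out 1 library gave 0 to 2. For the difference of the responses, with 2 calls, leaving out 1 library gave 1 to 3. For DEX against mock in *rve8*, with 3 calls, the count stayed within 1.5 times under every alternative, at 2 to 4. The causes were not tested. Counts were lowest for *BAM5* in *rve8* + DEX, with 7 to 21 per library, and for *BAM6*, with 29 to 67 in any library.

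With the replicate number as a block, the mock comparison of the lines gave 1 call in place of 2 (*BAM5* at 3.22, adjusted p 0.0127), *BAM5* also lost its call with DEX (3.59, adjusted p 0.0225, and 3.63 with 0.0331 in a fit of the 2 groups alone), and no other member's call changed. Libraries share only a number: the correlations of same-numbered libraries were -0.08 to 0.21, with 3 of 18 over 0.1, and 5 of 12 libraries correlated best with their own number.

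Directions reversed only for members that were not called. *BAM6* in *RVE8:GR* + DEX against *rve8* + DEX (-0.03) gave -0.14 to 0.17 without 1 library (0.00 without *RVE8:GR* + DEX library 2) and 0.00 without the pair. *BAM8* with DEX in *rve8* (0.01) gave -0.07 without TMM factors, -0.02 with upper-quartile factors and -0.09 to 0.09 without 1 library. *BAM4* in the difference of the responses (-0.03) gave 0.03 without TMM factors and -0.11 to 0.09 without 1 library. Without 1 library, *BAM5* (0.43) gave -0.17 to 0.81 and *BAM6* (-0.11) gave -0.22 to 0.09 in that difference, and *BAM6* (0.08) gave -0.02 to 0.13 and *BAM8* (-0.06) gave -0.15 to 0.02 between the mock groups. Without TMM factors, the *rve8* + DEX means of *BAM1* (54.0 CPM) and *BAM2* (18.4 CPM) moved by more than 1 SD.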
